A study of Mus musculus with 18 samples.

Results

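The difference of the genotype effect between effector and naive CD8+ T cells was computed for each gene as the log2 effect of cKO over WT in effector cells minus the same effect in naive cells. Genes were joined by their identifier, each effect was taken within the table of its own subset, and genes on the X and Y chromosomes were left out. Of 27830 genes listed in the series, 21326 were in both the naive and the effector table. Of these, 651 lay on X or Y, which left 20675 genes. A filter of at least 10 normalised reads in at least 3 of 12 libraries kept 14602 of them for testing. A value below 0 means that the cKO level relative to WT was lower in effector cells than in naive cells, and a value above 0 means the reverse.

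The series holds 18 libraries of poly-A RNA from CD8+ T cells of mice, of which the 12 naive and effector libraries are used here. The 4 groups of 3 replicates are naive WT, naive cKO, effector WT and effector cKO, where cKO stands for a conditional knockout of GRP75, the protein of Hspa9. The naive cells had been isolated from lymph node and spleen at an age of 8 weeks, the effector cells had been derived from naive cells in culture, and no treatment is named for either. The labels name neither the promoter of the deleting Cre nor the deleted exons, and they do not say whether replicates came from separate mice, so p-values measure the spread between these libraries.

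GRP75 is the HSP70 chaperone of the mitochondrial matrix. It pulls proteins through the inner membrane as the motor of the import machinery, folds them, and takes part in the assembly of iron-sulfur clusters. When mitochondria are impaired, kinases that phosphorylate the translation factor eIF2 can start the integrated stress response, in which translation of most mRNAs drops and the transcription factor ATF4 induces genes of amino acid uptake and synthesis. A naive CD8+ T cell rests outside the cell cycle, whereas an effector cell has been activated, divides quickly, and makes cytokines and cytotoxic granules.

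The 12 libraries held 15387638 to 18049774 reads in genes, and no library was a copy of another. The median SD between replicates was 0.16 on the log2 scale in naive cells and 0.13 in effector cells. Hspa9, on chromosome 18, did not fall in the libraries labelled cKO. Its normalised reads were 4095, 3789 and 4092 in naive WT, 6448, 6718 and 6149 in naive cKO, 2001, 2138 and 2140 in effector WT, and 2168, 2450 and 2402 in effector cKO. The log2 effect was 0.69 in naive cells and 0.16 in effector cells, the latter with an adjusted p of 0.093 by limma, and the difference was -0.53 (SE 0.08, adjusted p = 1.5e-04). Whether reads from a deleted part would be counted here cannot be told without the deleted exons, so directions below refer to the libraries labelled cKO.

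The sex-linked transcripts set the naive groups apart from each other. Ddx3y, a helicase gene of the Y chromosome, was at 0 reads in all 3 naive WT libraries and 2771 to 3056 normalised reads in the naive cKO libraries, and Kdm5d, Eif2s3y and Uty had the same pattern. Xist, which coats the inactive X chromosome of female cells, had 14705 to 17631 normalised reads in naive WT and 4109 to 4627 in naive cKO. In effector cells Xist was at 13696 to 14930 in WT and 12387 to 12848 in cKO, and the 4 Y-linked genes were not listed. Xist was lower in cKO than in WT libraries in both subsets, without overlap, and the gap was wider in naive cells. Sex and genotype cannot be told apart in the naive effect, nor in any difference below. All 3 naive cKO libraries held reads of the 4 Y-linked genes, and no naive WT library did. Each naive cKO library held both Ddx3y and Xist reads, and whether it mixed cells of both sexes was not tested.

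**Figure D1:**
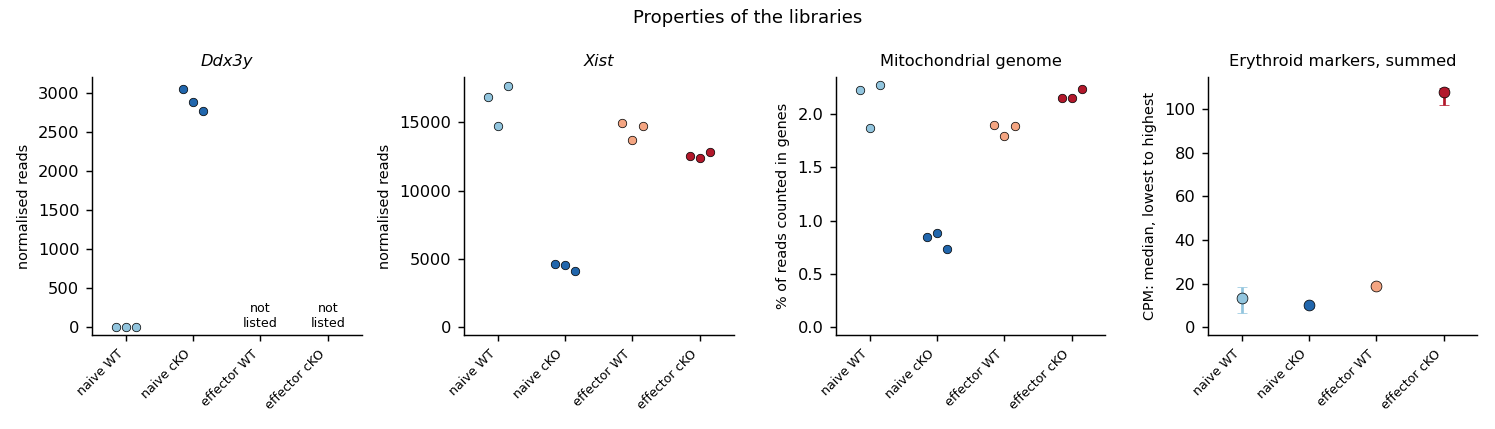
Ddx3y and Xist in normalised reads, the share of gene reads from the mitochondrial genome in percent, and the summed level of erythroid markers in CPM (reads scaled to a common library total) for the 4 groups. Points are libraries, except in the last panel, where the point is the median and the bar runs from the lowest to the highest library. The naive cKO libraries held Ddx3y reads, less Xist and 0.736 to 0.881% mitochondrial reads, against 1.86 to 2.27% in naive WT.

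The genotype effects of the 2 subsets differed for 3086 of the 14602 genes, or 21.1%, by limma with Benjamini-Hochberg adjustment (adjusted p under 0.05, which is what "called" means below). The difference was above 0 for 1478 genes (10.1%) and below 0 for 1608 (11.0%). It reached at least 2-fold for 237 genes above 0 and 727 below 0. The split depended on scaling: with libraries scaled to their totals instead of the deposited size factors, the median of all differences moved by -0.12 and 793 genes were above 0 against 2441 below. Within each subset, the effect in naive cells was called higher for 2117 genes (14.5%) and lower for 1980 (13.6%), and in effector cells higher for 878 (6.01%) and lower for 653 (4.47%). With libraries scaled to totals, the naive effect was called higher for 3322 and lower for 978, and the effector effect higher for 851 and lower for 679.

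Most of the called differences came with a called effect in naive cells and none in effector cells. Of the 1608 genes below 0, 979 rose in naive cKO cells with no called effect in effector cells, 187 rose in naive and fell in effector cells, 64 rose in both, and 201 fell in effector cells with no called naive effect. Of the 1478 above 0, 947 fell in naive cKO cells with no called effector effect, 157 fell in naive and rose in effector cells, and 223 rose in effector cells with no called naive effect. Neither effect was called by itself for 169 genes below 0 and 127 above. Among 732 genes called in both subsets, 388 moved in the same direction and 344 in opposite ones. Across the 10370 genes with a mean of at least 50 normalised reads, the naive and effector effects had a Pearson r of 0.15 and a Spearman rho of -0.02, a description across genes, which are not independent replicates.

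**Figure D2:**
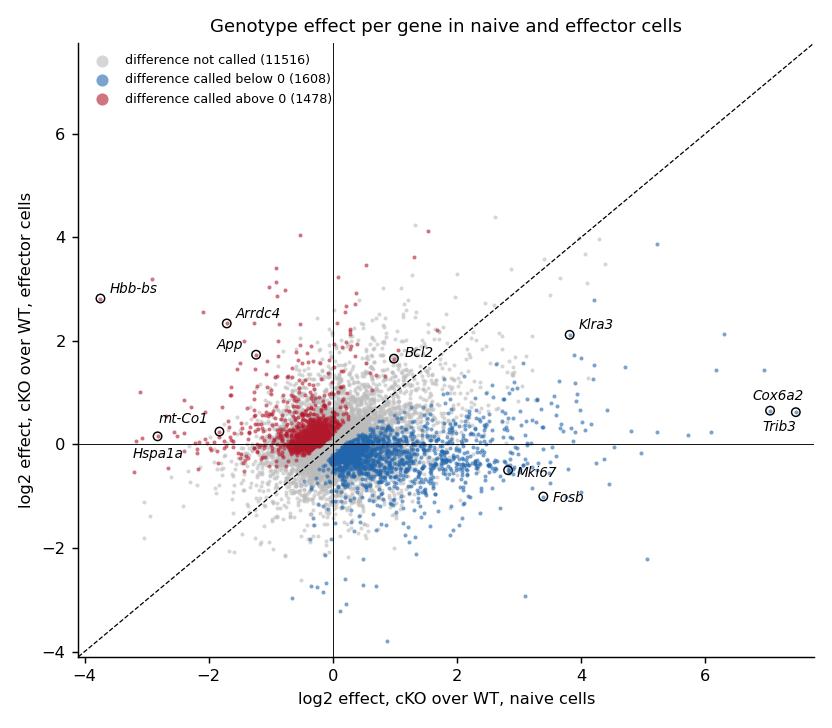
Log2 effect of cKO over WT in naive cells (horizontal) and effector cells (vertical) for the 14602 genes tested. Blue points have a called difference below 0 (1608), red points above 0 (1478), grey points none, and the dashed line marks equal effects. The blue genes spread to the right along the horizontal axis, out to 7.46 for Cox6a2, and named genes are ringed.

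Targets of ATF4 held the largest single differences below 0 on any pathway list. Of 40 tested genes on this list, 34 were called higher in naive cKO cells and 8 in effector cKO cells, against 14.5% and 6.01% of all genes. The difference was called below 0 for 32 and above 0 for 3, against 11.0% and 10.1% of all genes. Like every list here, this one was chosen with earlier results of these data known. Its shares are thus a description and not independent support. The median effect was 1.56 in naive cells and 0.15 in effector cells, and the median difference was -1.49, against 0.0024 over all genes tested. Trib3, a pseudokinase that ATF4 induces, had 3.16, 29.3 and 6.54 normalised reads in naive WT and 1220, 1229 and 1448 in naive cKO. In effector cells it had 13.5, 15.6 and 25.2 in WT and 28.4, 25.4 and 30.4 in cKO. Both pairs of groups were apart, but the difference was -6.39 (SE 0.67, adjusted p = 2.1e-06 by limma), and the effector effect of 0.65 was not called.

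Enzymes and carriers for amino acids stood next to Trib3. Asns, asparagine synthetase, had 1.05, 3.03 and 5.45 normalised reads in naive WT, 172, 208 and 215 in naive cKO, 103, 101 and 125 in effector WT, and 127, 132 and 115 in effector cKO. The naive groups were far apart and the effector groups overlapped, with a difference of -5.53 (SE 0.43). Slc1a4, a carrier of alanine, serine and cysteine, went from 6.33, 16.1 and 8.72 to 336, 304 and 355 in naive cells and stayed between 7.1 and 11.8 in all 6 effector libraries, with a difference of -5.13 (SE 0.45). Gpt2, a mitochondrial alanine aminotransferase, had a difference of -4.53, Pycr1 of proline synthesis -3.57, Psat1 and Phgdh of serine synthesis -1.10 and -0.75, and Mthfd2 of mitochondrial folate metabolism -1.80. Soat2, which esterifies cholesterol, rose from 11.6, 10.1 and 18.5 to 965, 960 and 932 in naive cells and had 517 to 714 in the effector libraries (-5.86, SE 0.22). Vegfa, a growth factor for blood vessels, rose from 3.16, 3.03 and 7.63 to 586, 608 and 762 in naive cells and from 5.19, 18.7 and 9.69 to 34.5, 25.4 and 26.4 in effector cells, both called, with a difference of -5.51 (SE 0.54). Niban1, a stress-induced gene, rose from 94.9, 112 and 119 to 2202, 2264 and 2318 in naive cells and fell from 3513, 3370 and 3292 to 2738, 2734 and 2909 in effector cells (-4.65, SE 0.10). Slc7a5, the light chain of a large neutral amino acid carrier, rose from 770, 894 and 785 to 4034, 3795 and 4315 in naive cells and had 687 to 808 in the effector libraries (difference -2.23, SE 0.10).

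Transcription factors of the response spread widely. Atf5 had a difference of -3.79, Atf3 of -2.23, Cebpg of -1.77, Ddit3 (CHOP) of -1.58, Cebpb of -1.49 and Atf4 itself of -0.48. Atf4 had 3032, 3204 and 2966 normalised reads in naive WT and 4452, 4387 and 4775 in naive cKO, and between 4382 and 5175 in all effector libraries. The naive cKO values of Atf4 thus lay within the range of all effector libraries. The subsets were normalised separately, so this comparison of levels is rough and carries no test. The 3 members above 0 were Stc2, a secreted glycoprotein, at 2.05, Ddit4, an inhibitor of mTORC1, at 1.09, and the autophagy receptor Sqstm1 at 0.29, which was not called when libraries were scaled to totals. Ddit4 fell from 3215, 2679 and 3074 to 2303, 2156 and 1675 in naive cells and rose from 869, 948 and 865 to 1348, 1308 and 1218 in effector cells.

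Promoters of 4 of these genes are shown because they hold the core of the element to which ATF4 and C/EBP proteins bind, written TGATGNAA and searched on both strands. The letters are from RefSeq on GRCm38.p6, an older build than that of the read counts (GRCm39), and run 5′ to 3′ on the strand of the gene, with the match in capitals.
Trib3, chr2:152344011-152344076, minus strand: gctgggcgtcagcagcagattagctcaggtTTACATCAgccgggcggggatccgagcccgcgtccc
Asns, chr6:7693195-7693262, minus strand: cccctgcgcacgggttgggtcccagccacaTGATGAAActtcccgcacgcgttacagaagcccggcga
Slc1a4, chr11:20332680-20332747, minus strand: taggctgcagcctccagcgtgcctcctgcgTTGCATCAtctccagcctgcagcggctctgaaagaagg
Aars, chr8:111033700-111033767, plus strand: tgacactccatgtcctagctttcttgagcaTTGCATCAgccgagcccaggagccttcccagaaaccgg
The match starts 14 bases after the transcription start in Trib3, 23 bases before it in Asns, 4 bases before it in Slc1a4 and 112 bases before it in Aars, whose window holds a further match 9 bases after the start. In windows from 250 bases before to 50 after a start, the core was found for 278 of 9557 tested genes with a promoter in the table (2.91%). It was found for 10 of 35 ATF4 targets on the list (28.6%), a share close to the 9 of 29 with a called difference below 0 (31%). Of all genes called below 0 it was found for 4.8%, and of those called above 0 for 2.46%. The windows of Vegfa, Niban1 and Gpt2 held no match. A match describes the letters and is not a bound site.

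Aminoacyl-tRNA synthetases of the cytosol, which load tRNAs with amino acids and include known ATF4 targets, moved alike in part. Of 20 tested, 13 rose and 3 fell in naive cKO cells, against 14.5% and 13.6% of all genes. In effector cells limma called 0, with 3 below 0 at an unadjusted p under 0.05, and DESeq2 called 1 below 0 and edgeR 0. The difference was called below 0 for 13, against 11.0% of all genes. It was above 0 for 2 (Hars at 0.29 and Farsa at 0.43), near the 10.1% of all genes. The call for Hars held in 18 of 23 alternatives. Aars, the alanine enzyme, had 841, 977 and 863 normalised reads in naive WT, 3352, 3466 and 3841 in naive cKO, 1988, 2091 and 1980 in effector WT and 1889, 1973 and 1929 in effector cKO. The naive groups were apart by 1.99, the effector effect was -0.06, and the difference was -2.06 (SE 0.09, adjusted p = 4.4e-11 by limma). Iars and Eprs had differences of -1.29 and -1.19.

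**Figure D3:**
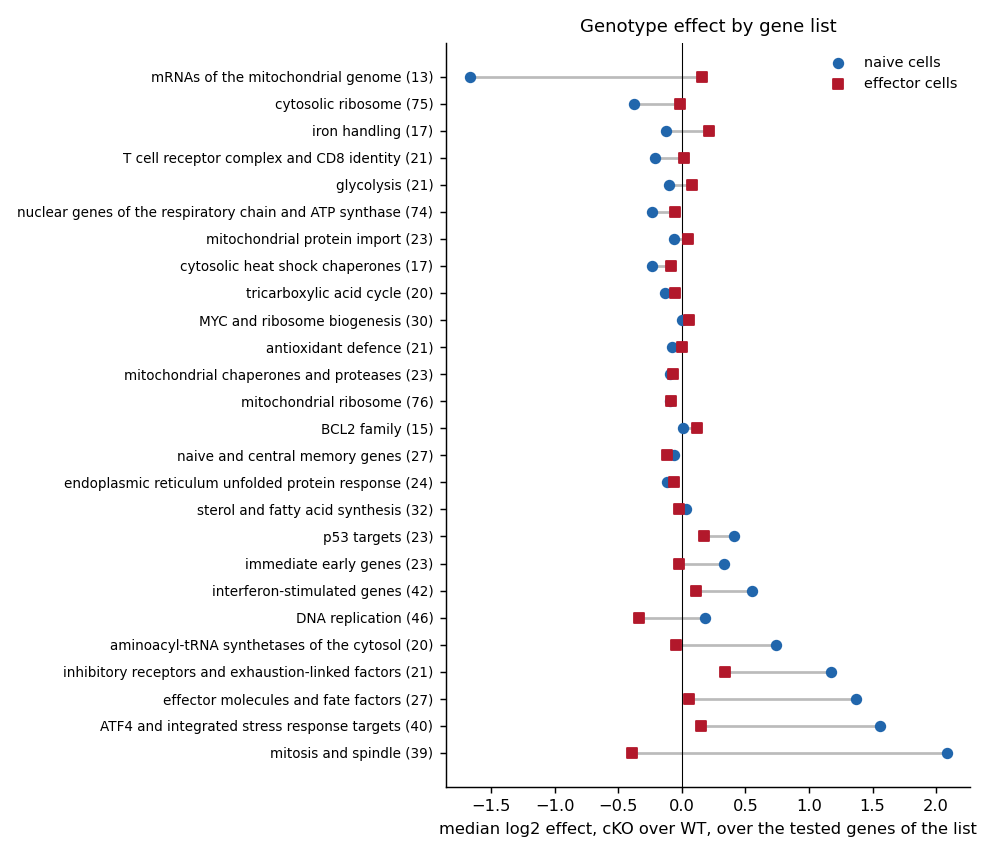
Median log2 effect of cKO over WT over the tested genes of each pathway list, in naive cells (blue circles) and effector cells (red squares), ordered by the median difference, with the number of genes in brackets. Mitosis and ATF4 genes lie far to the right in naive cells (2.08 and 1.56) and the mitochondrial mRNAs far to the left (-1.67), while the effector medians of these 3 lists lie between -0.39 and 0.16.

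Transcripts of the mitochondrial genome had the highest median difference of any pathway list. Of its 13 mRNAs, 12 were called above 0 and 1, mt-Nd3, below, against 10.1% and 11.0% of all genes. The median difference was 1.81. The 12 fell in naive cKO cells, 3 rose in effector cKO cells, and the median effects were -1.67 and 0.16. The call for mt-Nd3 (-0.78, adjusted p = 0.046 by limma) was lost in 10 of 23 alternatives, including the leaving out of each of 9 libraries in turn. mt-Co1, a core subunit of cytochrome c oxidase, had 178610, 155170 and 181240 normalised reads in naive WT and 50078, 51046 and 43912 in naive cKO. It had 156240, 145580 and 153110 in effector WT and 172590, 179870 and 187800 in effector cKO. The cKO libraries were thus all lower in naive cells and all higher in effector cells, with effects of -1.83 and 0.25 and a difference of 2.08 (SE 0.10, adjusted p = 1.3e-10 by limma). mt-Cytb of complex III followed with 2.01 and mt-Nd5 of complex I with 1.73. The share of gene reads from the mitochondrial genome was 1.86 to 2.27% in naive WT, 0.736 to 0.881% in naive cKO, 1.79 to 1.90% in effector WT and 2.14 to 2.23% in effector cKO. Poly-A selection captures these mRNAs through their short tails, and nuclear copies of mitochondrial sequence can take part of their reads.

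Nuclear genes on the list for the same complexes mostly differed in the same direction, 63 of 74 above 0, but by far less. That list does not hold Cox6a2, a nuclear cytochrome c oxidase gene described below, whose difference was -6.83. Of 74 tested, 16 were called above 0 and 0 below, where 0 also had an unadjusted p under 0.05 and edgeR and DESeq2 called 0. The median difference was 0.21, and 7 were called with libraries scaled to totals. The share called, 21.6%, is near the 21.1% of all genes in either direction, whereas 10.1% of all genes were called above 0. In naive cKO cells 36 fell, against 13.6% of all genes. Cox7a2l, an assembly factor of respiratory supercomplexes, had 6186 to 6680 normalised reads in naive WT, 3889 to 4247 in naive cKO and 3174 to 3509 in all 6 effector libraries (difference 0.69, SE 0.07). Uqcrh, a subunit of complex III, had 1812 to 2266 in naive WT, 1009 to 1289 in naive cKO and 1833 to 2064 in the effector libraries (0.72, SE 0.12).

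Cox6a2, the heart and muscle form of a cytochrome c oxidase subunit, had the largest difference below 0 among genes with a mean of at least 50 normalised reads. It went from 2.11, 2.02 and 2.18 in naive WT to 599, 518 and 519 in naive cKO, and from 11.4, 10.4 and 6.78 to 13.2, 14.5 and 17.2 in effector cells. The difference was -6.83 (SE 0.40, adjusted p = 1.6e-09 by limma), and the effector effect of 0.62 was not called. The gene lies on the minus strand at chr7:127804607-127805559 (GRCm39), inside the span of Itgad on the plus strand at chr7:127753548-127822988. Use of strand in the counting is not given in the sources used here, so their reads may not be fully told apart.

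Genes for other mitochondrial functions showed few calls. Of 23 chaperones and proteases of the organelle 0 were called by limma, although 2 above and 1 below 0 had an unadjusted p under 0.05. By edgeR and DESeq2, 1 was called in each direction. This list does not hold Hspa9 itself, whose difference of -0.53 was called. Of 76 genes of the mitochondrial ribosome 6 were above 0 and 2 below, with a median of 0.03 that turned to -0.09 when scaled to totals and was also below 0 without effector WT 2. Of 23 import genes 5 were above 0, among them Tomm22, the central receptor of the outer membrane, at 0.49. Of 20 genes of the tricarboxylic acid cycle 4 were above 0, with Idh2 at 0.53, and the median of 0.12 turned to -0.0017 under that scaling. The shares called on these 4 lists, 0%, 10.5%, 21.7% and 20%, lie near or below the 21.1% of all genes tested in either direction. All called members of the import and tricarboxylic acid cycle lists were above 0, whereas 10.1% of all genes were called above 0.

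Genes of the cytosolic ribosome, in contrast, were called for 58.7% of their members. Of 75 tested, 42 were above 0 and 2 below, with a median of 0.36, and 60 fell in naive cKO cells against 1 in effector cKO cells. Of all genes, 10.1% were above 0 and 11.0% below, and 13.6% fell in naive and 4.47% in effector cells. With libraries scaled to totals 22 were above 0. Rpl14 had 14239 to 15408 normalised reads in naive WT, 9615 to 10839 in naive cKO and 6863 to 7301 in all effector libraries, with a difference of 0.52 (SE 0.07). Rpl29 went the other way, at -0.86. Ribosomal protein genes have many processed pseudogenes, which can take part of their reads.

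Genes of mitosis and the spindle moved as a block. All 39 tested had a called difference below 0, against 11.0% of all genes, and they did so under each of the 23 alternatives. Their median effect was 2.08 in naive cells and -0.39 in effector cells, and 18 of the 39 rose in naive cKO and fell in effector cKO cells. The count that fell in effector cells depended on the tool: limma called 18, and edgeR and DESeq2 each called 36 (4.47% of all genes fell by limma). Mki67, the proliferation marker Ki-67, had 246, 200 and 217 normalised reads in naive WT and 1480, 1502 and 1712 in naive cKO. In effector cells it had 21561, 19897 and 20168 in WT and 14561, 14173 and 14891 in cKO. Naive cKO libraries were all above WT and effector cKO libraries all below WT, with effects of 2.82 and -0.50 and a difference of -3.32 (SE 0.10, adjusted p = 2.8e-13 by limma). Kif11, a spindle motor, had a difference of -3.02 and Top2a, which untangles DNA before division, of -2.78. The levels of the subsets stayed far apart: for all 39 genes the mean CPM was higher in effector WT than in naive cKO cells, with medians over the list of 2.6 in naive WT, 10.8 in naive cKO, 99.7 in effector WT and 81.3 in effector cKO. These levels are relative to each library's own total over the genes listed for its subset, and carry no test.

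DNA replication genes followed in part. Of 46 tested, 32 were below 0 and 0 above, where 1 had an unadjusted p under 0.05 and edgeR and DESeq2 called 0. In naive cKO cells 22 rose, in effector cKO cells 22 fell, and 11 did both. Of all genes, 11.0% were below 0 and 10.1% above, 14.5% rose in naive and 4.47% fell in effector cells. Rrm2, the regulated subunit of ribonucleotide reductase, had 97, 91.8 and 64.3 normalised reads in naive WT, 323, 274 and 321 in naive cKO, 4167, 4136 and 4110 in effector WT and 3036, 2755 and 2582 in effector cKO (difference -2.44, SE 0.17). Uhrf1 had a difference of -1.96 and E2f2 of -1.28. In bulk RNA, more cycling cells and more of these transcripts in each cell cannot be told apart.

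Among 23 targets of p53, 10 were below 0 and 1, Sesn1, above, against 11.0% and 10.1% of all genes. Cdkn1a, the cell cycle inhibitor p21, had 1.05, 3.03 and 0 normalised reads in naive WT, 74.9, 87.5 and 62.2 in naive cKO, 235, 302 and 253 in effector WT and 323, 318 and 292 in effector cKO. The naive groups were apart and the effector groups overlapped, with a difference of -4.97 (SE 0.48, adjusted p = 9.2e-07 by limma). Plk2 had -2.84 and Pmaip1 (NOXA), an inducer of apoptosis, -1.18. The cell death regulators of the BCL2 family were called in both directions, 2 above and 2 below 0 of 15, a share of 26.7% that is near the 21.1% of all genes, and their median of 0.02 turned below 0 when scaled to totals or by TMM and without effector cKO 2. Bcl2, which blocks apoptosis, rose in both subsets, from 4592, 4345 and 4652 to 9300, 9244 and 8330 in naive cells and from 718, 671 and 710 to 2222, 2157 and 2243 in effector cells. Its effect was larger in effector cells, 1.66 against 0.98, with a difference of 0.67 (SE 0.08, adjusted p = 5.5e-06 by limma). Bcl2l11 (BIM), which opposes it, rose in both subsets too, more in naive cells (0.98 against 0.56, difference -0.42).

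**Figure D4:**
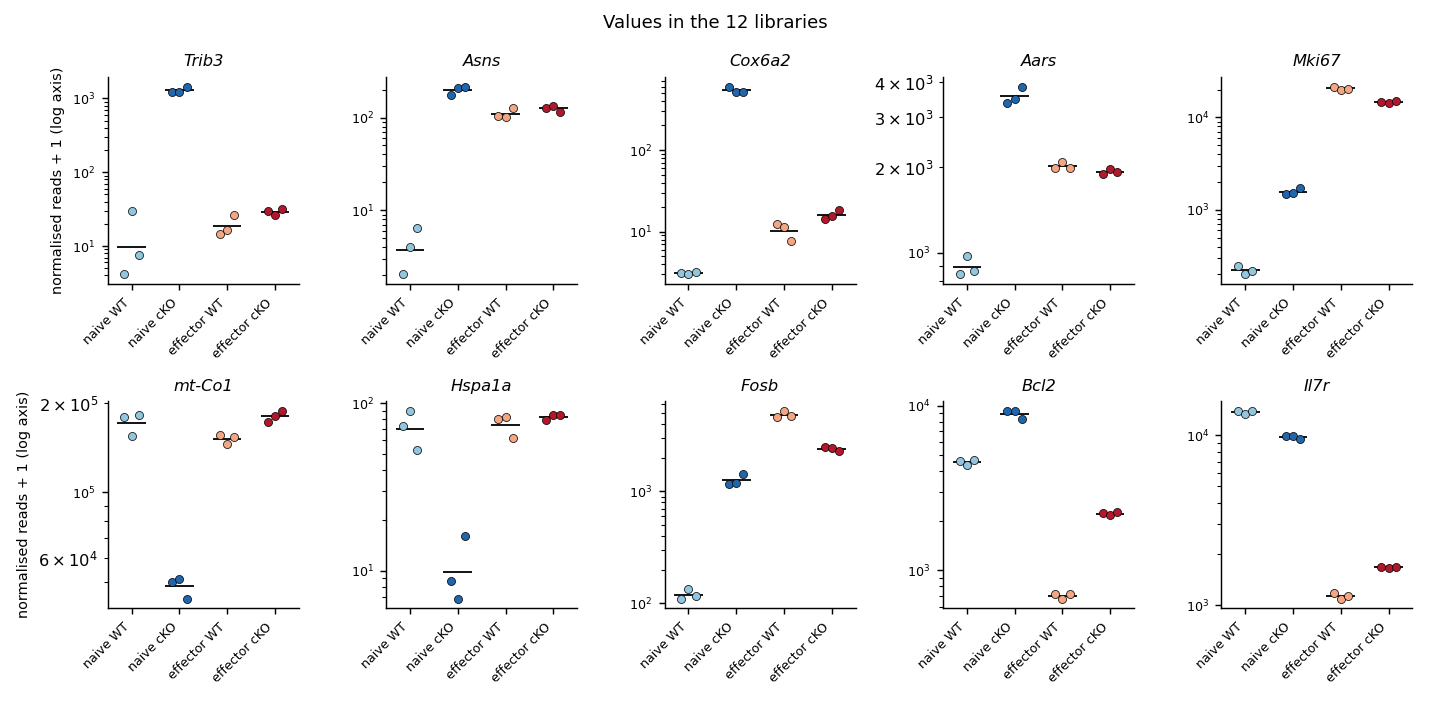
Normalised reads plus 1 on a log axis for 10 genes in the 12 libraries. Points are libraries and lines the means on the log scale. Trib3, Asns and Cox6a2 were high in naive cKO libraries and low in naive WT ones, mt-Co1 and Hspa1a were low in naive cKO libraries, Fosb and Mki67 moved in opposite directions in the 2 subsets, Bcl2 rose in both, and Il7r fell in naive and rose in effector cKO libraries.

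Interferon-stimulated genes rose in naive cKO cells for 29 of 42 tested, against 10 in effector cKO cells, and the difference was below 0 for 20 and above 0 for 5. Over all genes, 14.5% rose in naive and 6.01% in effector cells, and the difference was below 0 for 11.0% and above 0 for 10.1%, near the list's share above 0. Mx1, an antiviral GTPase, had 483, 511 and 468 normalised reads in naive WT, 1476, 1561 and 1498 in naive cKO, 761, 760 and 768 in effector WT and 725, 750 and 739 in effector cKO. The naive effect of 1.63 had no counterpart in effector cells (-0.05), and the difference was -1.68 (SE 0.08, adjusted p = 2e-10 by limma). Rsad2, an antiviral enzyme, had -1.55. Ifit1bl1 went the other way, from 1858 to 1923 down to 1118 to 1270 in naive cells and from 771 to 883 up to 958 to 1068 in effector cells (difference 0.97). Usp18, which restrains interferon signalling, rose in both subsets but more in effector cells (difference 0.79). The core of the interferon response element, GAAANNGAA on either strand, was found in promoters of 20 of 30 list members with a window (66.7%) and in 8.72% of all tested genes. This core is also found for 10.6% of genes called above 0 and 9.42% of those called below.

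Immediate early genes, which respond within minutes to signals such as T cell receptor ligation, were below 0 for 11 of 23 and above 0 for 3, against 11.0% and 10.1% of all genes, and the share above 0 is near that background. Fosb, a subunit of AP-1, had 110, 133 and 114 normalised reads in naive WT, 1171, 1182 and 1422 in naive cKO, 4656, 5246 and 4687 in effector WT and 2488, 2463 and 2305 in effector cKO. It rose by 3.39 in naive cells and fell by 1.01 in effector cells, and its difference of -4.40 (SE 0.12) had an adjusted p of 8.4e-14 by limma. Fos (-2.31) and Cd69, an early activation antigen (-1.52), had the same pattern. Egr3 was above 0 at 0.98.

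Inhibitory receptors and factors linked to exhaustion were below 0 for 12 of 21 and above 0 for 2, with 15 higher in naive cKO cells and 8 in effector cKO cells. Over all genes the shares were 11.0% below and 10.1% above 0, the latter near that of the list, and 14.5% higher in naive and 6.01% in effector cells. Pdcd1, the receptor PD-1, rose from 28.5, 28.3 and 31.6 to 49.1, 84.6 and 49.2 normalised reads in naive cells and fell from 232, 273 and 224 to 105, 112 and 133 in effector cells (difference -2.03, SE 0.29). Nr4a1, an orphan nuclear receptor induced by T cell receptor signals, rose in naive cells by 1.98 and in effector cells by 0.23 (difference -1.75), Nr4a2 had -2.11 and Tigit -2.41.

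Effector molecules and fate factors were below 0 for 15 of 27, and 1, Prf1, was above, against 11.0% and 10.1% of all genes. Bhlhe40, a transcription factor of cytokine production, had 42.2, 47.4 and 33.8 normalised reads in naive WT, 510, 496 and 580 in naive cKO, 23741, 25266 and 23732 in effector WT and 30923, 29842 and 29928 in effector cKO (difference -3.34, SE 0.13). Ccl5 rose from 56.9, 63.6 and 57.8 to 461, 439 and 433 in naive cells and fell from 64489, 65246 and 65843 to 59705, 58954 and 54722 in effector cells (-3.06). Irf4 had -2.55, Ifng -2.53 and Gzmb -2.37. For all 27 genes the mean CPM in effector WT cells exceeded that in naive cKO cells. Prf1, the pore former of cytotoxic granules, fell from 1092, 1202 and 1082 to 454, 406 and 443 in naive cells and had 3864 to 4437 in the effector libraries (difference 1.47, SE 0.09).

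Genes of naive and central memory cells split in both directions, 8 above and 7 below 0 of 27, against 10.1% and 11.0% of all genes. The median was near 0 and its sign was not stable: it was below 0 when scaled to totals or by TMM, by edgeR and DESeq2, and without naive WT 2, naive cKO 1 or 2, effector WT 1 or 2, or effector cKO 2. Il7r, the receptor for the survival cytokine IL-7, fell from 13285 to 13896 down to 9497 to 9951 in naive cells and rose from 1094 to 1174 up to 1666 to 1677 in effector cells (1.05, SE 0.06). Cd27 had 0.49. Ccr7, the chemokine receptor that guides cells to lymph nodes, went the other way at -0.77, with Cd28 at -0.63 and Klf2 at -0.63. The call for Klf2 held in 16 of 23 alternatives.

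Genes of the T cell receptor complex and of CD8 identity were above 0 for 13 of 21 and below 0 for 2. The shares of all genes were 10.1% above and 11.0% below. With libraries scaled to totals 5 of the list were above 0. In naive cKO cells 16 fell, against 13.6% of all genes. Cd3d had 6266 to 6717 normalised reads in naive WT, 4562 to 5157 in naive cKO, 4982 to 5207 in effector WT and 5254 to 5544 in effector cKO (difference 0.52, SE 0.07). The labelled cell type was carried by Cd8a, with 21385 to 28571 normalised reads in the 12 libraries and no called difference (0.10, adjusted p = 0.29 by limma). Cd8b1, the beta chain of CD8, fell in both subsets, by 0.46 in naive and 0.71 in effector cells. The call for its difference of -0.25 was lost in 2 of 23 alternatives.

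Cytosolic heat shock chaperones were above 0 for 6 of 17 and below 0 for 1, against 10.1% and 11.0% of all genes. Hspa1a, the inducible HSP70, had 71.7, 88.8 and 51.2 normalised reads in naive WT, 7.75, 5.83 and 15.1 in naive cKO, and 61.1 to 84.1 in all effector libraries. The naive cKO libraries alone were low, and the difference was 2.98 (SE 0.42, adjusted p = 5.4e-05 by limma). Hspa1b, its near-identical neighbour, had 2.28, and reads of the pair can be split between them. Dnajb1, their co-chaperone, fell in naive and rose in effector cells (0.74). Genes that answer unfolded proteins in the endoplasmic reticulum were called in both directions, 4 above and 5 below 0 of 24 (37.5%, against 21.1% of all genes), with its sensor Atf6 at -1.43.

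Metabolic lists were mixed. Of 32 sterol and fatty acid synthesis genes 6 were below 0 and 2 above. Scd2, a fatty acid desaturase, rose from 1284, 1235 and 1290 to 3262, 3341 and 3216 normalised reads in naive cells and fell from 2094, 2184 and 2108 to 1108, 1095 and 1146 in effector cells (difference -2.30, SE 0.07). Its relative Scd1 had -3.03. Of 21 glycolysis genes 6 were above 0 and 2 below, the latter Hk2 at -1.29 and the lactate carrier Slc16a1 at -0.80. Of 17 iron handling genes 6 were above 0, with Fth1, the ferritin heavy chain, at 0.43 and Slc25a37, the mitochondrial iron importer, at 0.63. These lists' shares of 25%, 38.1% and 35.3% compare with 21.1% of all genes. Of 21 antioxidant genes 4 were above 0 and 1 below, and of 30 genes of MYC and ribosome biogenesis 4 were above and 2 below, with shares of 23.8% and 20%, and both medians (0.08 and 0.09) turned below 0 with libraries scaled to totals.

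Genes whose called effects had opposite signs in the 2 subsets numbered 344. That the difference itself was called for all 344 follows largely by construction, because it is computed from the same 2 effects. The number depended on single libraries: the 187 genes that rose in naive and fell in effector cells became 118, 117, 123 and 120 without effector WT 1, effector WT 3, effector cKO 2 or effector cKO 3. The 157 of the other direction became 102, 98 and 100 without effector WT 1, effector cKO 2 or effector cKO 3. Among those with a mean of at least 50 normalised reads, F2rl1, a receptor activated by proteases, was of the second kind. It had 1448, 1442 and 1428 in naive WT, 432, 449 and 378 in naive cKO, 218, 221 and 214 in effector WT and 344, 369 and 368 in effector cKO (difference 2.50, SE 0.11, adjusted p = 4.4e-11 by limma). H2-Ob, a chain of the class II regulator H2-O, fell from 1509, 1435 and 1429 to 583, 593 and 506 and rose from 143, 144 and 186 to 230, 267 and 272 (2.08). Nrp1, a coreceptor of semaphorins and VEGF, was of the first kind. It had 15.8, 6.06 and 30.5 in naive WT, 48.2, 77.8 and 48.2 in naive cKO, 425, 419 and 399 in effector WT and 133, 120 and 116 in effector cKO (-3.64, SE 0.51).

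**Figure D5:**
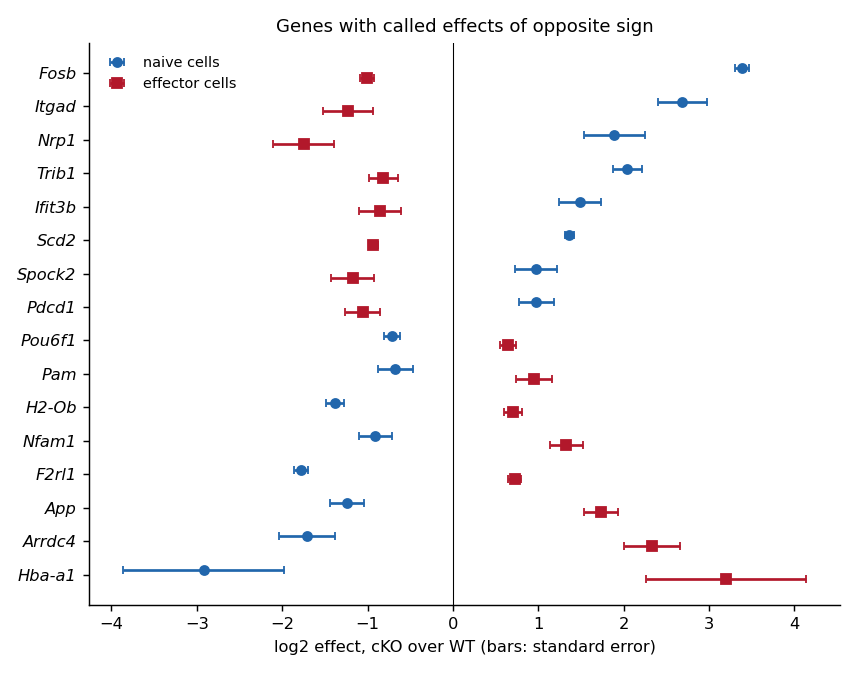
Log2 effect of cKO over WT with its standard error for 16 genes with called effects of opposite sign, in naive cells (blue circles) and effector cells (red squares). The 8 genes from Fosb to Pdcd1 rose in naive and fell in effector cells, the 8 from Pou6f1 to Hba-a1 did the reverse, and the bars of Hba-a1 are the widest.

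Some genes above 0 rose in effector cKO cells. Pak1, a kinase downstream of Rac and Cdc42, had 86.5 to 113 normalised reads in naive WT and 123 to 136 in naive cKO, but 4.15, 5.19 and 4.85 in effector WT against 43.6, 43.6 and 39.5 in effector cKO (difference 2.55, SE 0.30). App, the amyloid precursor protein, fell from 130, 169 and 159 to 61.1, 69 and 61.2 in naive cells and rose from 38.4, 36.3 and 34.9 to 156, 137 and 88.2 in effector cells (2.97, SE 0.29). Arrdc4, an arrestin-like gene that glucose induces, fell from 297 to 326 down to 91.2 to 97.4 in naive cells and rose from 2.08, 5.19 and 0.969 to 13.2, 20 and 15.2 in effector cells (4.05, SE 0.47).

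The largest values above 0 were globins, which mark red blood cells. Hbb-bs, a beta globin, had 0, 47.4 and 91.6 normalised reads in naive WT, 0.861, 0 and 0 in naive cKO, 92.4, 86.2 and 111 in effector WT and 721, 688 and 644 in effector cKO. The naive WT library 1 had none, so the naive groups overlapped, and the difference of 6.56 had an SE of 1.46 (adjusted p = 0.0037 by limma). Of 7 erythroid markers 5 were above 0, against 10.1% of all genes. Their summed levels were 18.7 to 20.4 CPM in effector WT and 102 to 109 in effector cKO. In naive cells the sums were 6.72 to 18.5 CPM in WT and 8.66 to 10.4 in cKO. The globin genes are near-identical copies, and reads can be split between them.

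Markers of further cell types moved with genotype as well. In effector cells the summed level of 8 neutrophil markers went from 14.8 to 16.2 CPM in WT to 49.3 to 53.3 in cKO, and that of 19 markers of macrophages, monocytes and dendritic cells from 933 to 948 to 1217 to 1245. Of 18 tested members of the latter list 8 rose in effector and 9 in naive cKO cells. The summed level of 7 markers of gamma-delta T cells rose in both subsets, from 9.62 to 11.1 CPM to 50.5 to 59.2 in naive and from 9.02 to 9.73 to 64.0 to 66.7 in effector cells. Of 6 tested members 4 were called higher in naive and 6 in effector cKO cells, against 14.5% and 6.01% of all genes. Of 13 B cell markers 10 rose and 2, Cd79b and Ighm, fell in naive cKO cells, with a median effect of 1.77, although their summed level went from 447 to 486 down to 376 to 415 CPM. In effector cells 2 rose and the sum went from 292 to 303 up to 473 to 478 CPM, with a median effect of 0.38. Of 13 NK cell markers, many of which activated CD8+ T cells also express, 9 rose and 2 fell in naive cKO cells and 9 rose and 1 fell in effector cKO cells, with median effects of 2.30 and 1.60. Their sum went from 49.0 to 54.5 to 55.7 to 64.2 CPM in naive and from 4853 to 5192 to 5788 to 6356 in effector cells. Klra3, a receptor for class I molecules from a family of near-identical genes, rose in both subsets, by 3.81 in naive and 2.12 in effector cells (difference -1.70), while Klrk1 (NKG2D) fell by 0.63 in naive and rose by 0.63 in effector cells (1.27). Those of CD4 and regulatory T cells went from 259 to 308 to 290 to 325 CPM in naive and from 192 to 193 to 202 to 214 in effector cells. Differences were called for 1 of 7 neutrophil markers (S100a9 at 1.69), 2 of 18 myeloid, 1 of 6 gamma-delta, 8 of 13 B cell, 5 of 13 NK cell and 2 of 6 CD4 markers. Against the 21.1% of all genes, the shares of the neutrophil, myeloid and gamma-delta lists (14.3%, 11.1% and 16.7%) were below it. The part of other cells in the differences above was not tested, and in bulk RNA more cells of a type and more RNA per cell cannot be told apart.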

How the data were processed

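Poly-A RNA-seq values of 12 libraries were used, 3 in each of 4 groups taken from the labels. Per the submitters' processing notes, tools and builds include fastp, HISAT2 2.2.1, featureCounts 2.0.6, DESeq2 1.42.0 and GRCm39. The deposited values are a normalised signal: the authors divided the read counts of a library by 1 size factor, set within each subset's table. Dividing each library's values by their smallest step gave whole reads for 100% of values (tolerance 1e-05 reads), and the 12 libraries held 15387638 to 18049774 reads. The authors' deposited tables also hold their log2 fold changes and p-values per subset, which were not used.

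Effects were fitted with limma 3.58.1 in R 4.3.3 on the log2 of normalised reads + 1, with trend = TRUE, 1 mean per group over the 12 libraries (8 residual degrees of freedom), and contrasts for the naive effect, the effector effect and their difference. Fold changes on this scale understate the change of low genes. P-values were adjusted by Benjamini-Hochberg over all 14602 genes that reached 10 normalised reads in 3 or more libraries. A further 40 genes listed in the naive table alone and 141 in the effector table alone passed this filter within their table and are not in the comparison. On simulated data of 14341 genes the fit recovered 30 of 50 differences of 1.5-fold, 42 of 2-fold, 49 of 3-fold and 49 of 4-fold, with 7 false calls. The changed genes had a mean of at least 50 normalised reads and were changed in effector cKO alone. They were also far fewer than the genes called in the data, so recovery of lower genes was not measured and the rates may differ in the data. Alternatives were other pseudocounts, filters, scalings and libraries, a replicate block, edgeR 4.0.16 and DESeq2 1.42.0 on the recovered reads, and leaving out each library.

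Named genes are the targeted gene, the 12 largest called differences in each direction with a mean of at least 50 normalised reads, the 8 of each kind with opposite called effects, and up to 3 called members of each of 33 lists; the other list members named were chosen after their values were seen. Of the 929 list entries 29 were matched by a RefSeq synonym and 2 by an older symbol. The members and lists were chosen with earlier results of these data known. CPM are recovered reads relative to the library's total over genes. Promoters are from RefSeq on GRCm38.p6. Of 33 lists, 26 are pathways and 7 markers of other cells. A member of the naive and central memory list is not reported here by itself.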

Additional observations from a re-analysis of the deposited data

Results flagged for a closer look

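The comparison as a whole is a difference between 2 cell subsets under the same contrast of genotypes, and the test of that difference in limma called 1478 genes above 0 and 1608 below. Singled out here are the named genes whose effect was called in both subsets with opposite signs. Among genes that rose in naive cKO and fell in effector cKO cells, the difference was -4.40 for Fosb, -3.92 for Itgad, -3.64 for Nrp1, -2.86 for Trib1, -2.34 for Ifit3b, -2.30 for Scd2, -2.15 for Spock2 and -2.03 for Pdcd1. Ifit3b is a close copy of Ifit3, and Itgad overlaps Cox6a2 on the other strand. Among genes that fell in naive cKO and rose in effector cKO cells, it was 1.36 for Pou6f1, 1.62 for Pam, 2.08 for H2-Ob, 2.24 for Nfam1, 2.50 for F2rl1, 2.97 for App, 4.05 for Arrdc4 and 6.12 for Hba-a1. The naive groups of Hba-a1 overlapped, with 0, 19.2 and 62.1 normalised reads in WT and 0, 1.94 and 0 in cKO. Its difference had an SE of 1.33.

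Ddx3y, Eif2s3y, Kdm5d and Uty, all Y-linked, lie outside the comparison and had reads in 1 of the 2 naive genotypes. Over all 17 Y genes listed for naive cells, WT libraries held 1699, 2421 and 2029 reads and cKO libraries 9870, 8668 and 7688. Mean normalised reads in the naive cKO libraries were 2907 for Ddx3y, 1699 for Eif2s3y, 1275 for Kdm5d and 487 for Uty, against 0 in each naive WT library. The allowance of 3 counts over a group for a value of 0 lies far below these means.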

How the results depend on the processing

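Under 23 alternatives the count of called differences ran from 2390 to 3263, and 1673 of the 3086 genes were called in the same direction under all of them (713 above 0, 960 below). Of the 110 genes named by rule none reversed. Mrpl18, Tomm34, Mdh1, Aco1, Mcl1, Bysl and Txn2 lost their call with libraries scaled to totals. Nop58 lost it with the replicate block or without naive cKO 2, and Mrpl18 without naive WT 1, effector WT 2 or effector cKO 3. List members named outside these 110 lost calls too. Among them, Klf2 kept its call in 16 of 23 alternatives, Hars in 18, and Atf3 and Pycr1 in 22 each. With libraries scaled to totals, 793 differences were above 0 and 2441 below, naive effects were 3322 higher and 978 lower, and opposite effects were 282 (naive higher) and 97 (naive lower). Those with naive higher numbered 290 by edgeR and 302 by DESeq2. Deviations of same-numbered libraries correlated between -0.10 and 0.02. With 3 libraries per group this cannot settle whether replicate numbers paired the samples. The fit with a replicate block called 1103 differences above 0 and 1287 below, 402 genes lower in effector cells, and 123 and 95 with opposite effects. Leaving out each library in turn gave 1165 to 1595 differences above 0 and 1325 to 1606 below, 1744 to 2073 naive effects higher and 1560 to 1909 lower, 558 to 1037 effector effects higher and 383 to 826 lower, and opposite effects of 117 to 233 (naive higher) and 98 to 172 (naive lower). The effector count of 878 higher became 558 without effector cKO 2 and 573 without effector cKO 3, and that of 653 lower became 391, 431 and 383 without effector WT 1, 2 or 3, and 405 and 414 without effector cKO 2 or 3. The causes were not tested. Where leaving out a library leaves an arm of 2, the spread is pooled over the groups. Scaling to totals raises all naive effects by 0.12, which bears on any naive effect of that size.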

Other observations

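Further genes with large differences fall outside the lists above. Ska1, a kinetochore protein on chromosome 18, had 2.11, 3.03 and 0 normalised reads in naive WT, 32.7, 24.3 and 38.1 in naive cKO, 330, 380 and 355 in effector WT and 256, 261 and 252 in effector cKO, with a difference of -4.26 (SE 0.52). H2bc4, a replication-linked histone gene, went from 12.7, 6.06 and 2.18 to 85.2, 84.6 and 58.2 in naive cells and from 264, 323 and 257 to 167, 172 and 160 in effector cells (-4.24, SE 0.50). Both were below effector WT in every effector cKO library, although their effector effects (-0.47 and -0.75) were not called by limma. Fam177a2 had a difference of 3.26 (SE 0.75), and its effector cKO libraries ranged from 21.3 to 180 normalised reads, a spread in which 1 library stood apart from the other two.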
